A study of Mus musculus with 6 samples.

Results

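Calcineurin, NFAT and MEF2 signalling was followed here through 10 genes, chosen by symbol from the deposited table of 16759 genes: Ppp3ca, Ppp3cb and Ppp3r1 of calcineurin, its modulators Rcan1 and Rcan2, the transcription factors Nfatc1 and Nfatc3, and the MEF2 factors Mef2a, Mef2c and Mef2d. All 10 were found, and all 10 lay above the filter of a mean of 1 FPKM that left 10883 genes to test. RNA-seq of hind leg muscle covered 3 control (Con) and 3 exercise (EX) mice, each with its own library. All were male C57BL/6J mice that were 8 weeks old when the experiment began. The EX mice ran on a treadmill 5 days a week, 60 min each day, over 6 weeks and were killed 24 h after their last session, whereas the Con mice had no treadmill training. The tissue was a soybean-sized piece of hind leg muscle with the fat between the muscles removed, and neither which muscle it came from nor whether it was the same muscle in each mouse is given in the sources used here. A difference in the muscle sampled and an effect of training therefore cannot be told apart.

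Calcineurin is a phosphatase that calcium and calmodulin switch on. It removes phosphate from NFAT proteins, which then enter the nucleus, and in skeletal muscle it is known for favouring genes of slow fibres together with MEF2 factors. RCAN proteins bind calcineurin and restrain it, and class II histone deacetylases hold MEF2 factors back until kinases such as CaMKII drive them out of the nucleus. Much of this control acts on proteins, and the values here are of transcripts alone.

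Counts on genes totalled between 13845362 and 16240431 per library. Levels are given as CPM, counts scaled to a common library size by TMM normalization, when 1 gene is compared between groups, and as FPKM, which is also per length, when genes are compared with each other. EX and Con were compared with edgeR's quasi-likelihood test, and a gene was called when its p, adjusted over all 10883 genes by the Benjamini-Hochberg method, was under 0.05. This gave 1949 genes, or 17.9%, with 991 (9.11%) higher and 958 (8.80%) lower in EX. With totals that left out the 20 most abundant genes, the split was 772 higher and 1259 lower. With limma on log2(FPKM + 0.1) it was 411 and 1037, and on log2(TPM + 0.1) it was 340 and 1684. The median log2 fold change of all genes tested was -0.00, and in these 3 alternatives it was -0.03, -0.06 and -0.09. Each mean is given with its SD over n = 3 mice, and each fold change with its standard error (SE).

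Of the 10 members, 1 was called, and 9 were not. The called gene was Rcan2, which was lower in EX, and no member was called higher. This share of 10% lies beside 17.9% among all genes tested. The median log2 fold change of the members was -0.04, with 4 above 0 and 6 below. The log2 fold changes of the 9 other members lay between -0.09 and 0.09, and their 95% intervals, which are not adjusted for the number of genes, ran from -11.5% to 13.0% as a change in level. In tissue RNA, fewer cells of a type and less RNA per cell cannot be told apart, and this holds for each gene below.

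**Figure D1:**
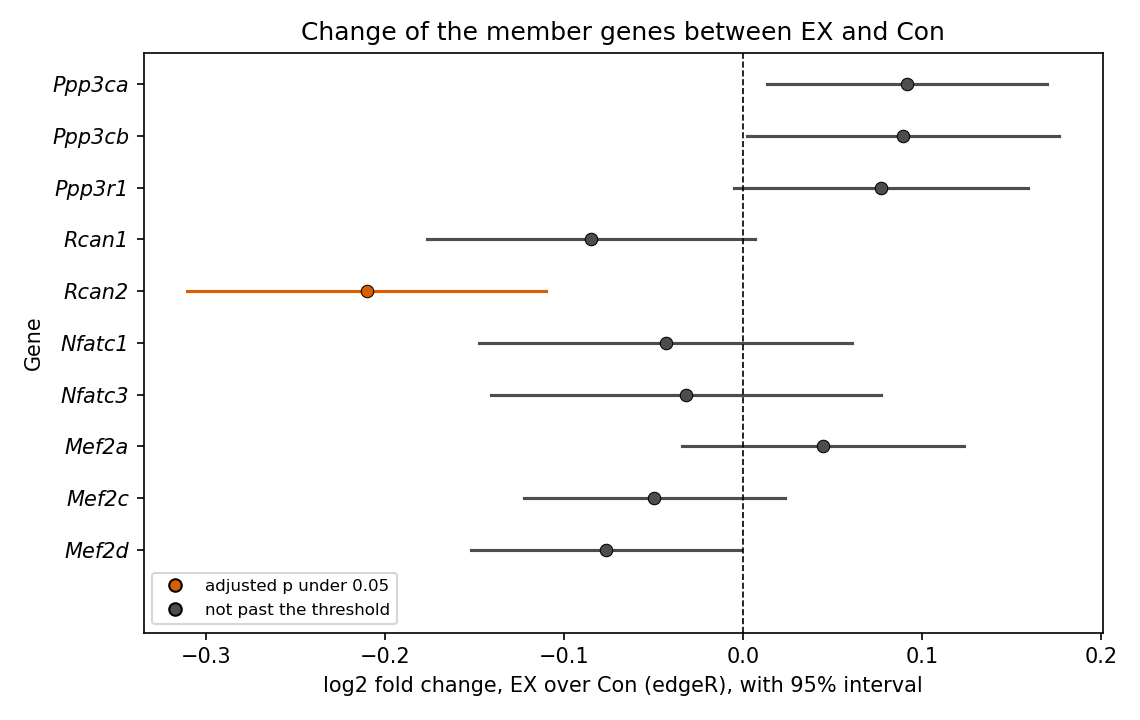
Log2 fold changes of the 10 member genes between EX and Con (horizontal axis) from edgeR's quasi-likelihood test, with 95% intervals as lines. The interval of Rcan2, the called gene, runs from -0.31 to -0.11, and the estimates of the other 9 lie between -0.09 and 0.09.

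The 10 transcripts spanned a wide range of levels. On the FPKM scale Ppp3cb stood highest, with a mean of 105.9 over the 6 libraries, followed by Ppp3r1 at 94.4 and Mef2c at 86.0. Mef2d was at 63.0, Ppp3ca at 53.6 and Rcan1 at 52.8. Below them came Mef2a at 34.7, Rcan2 at 17.0, Nfatc1 at 14.7 and Nfatc3 at 8.36. Among the genes tested, Ppp3cb lay at percentile 93.6 of mean FPKM and Nfatc3 at percentile 48.2, so that the phosphatase subunits and the MEF2 factors stood above the NFAT factors. Each gene stood above the next one in all 6 libraries, except that Ppp3ca was above Rcan1 in 3 of 6. The ranges over libraries overlapped for Ppp3cb and Ppp3r1, for Ppp3r1 and Mef2c, for Ppp3ca and Rcan1, and for Rcan2 and Nfatc1.

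**Figure D2:**
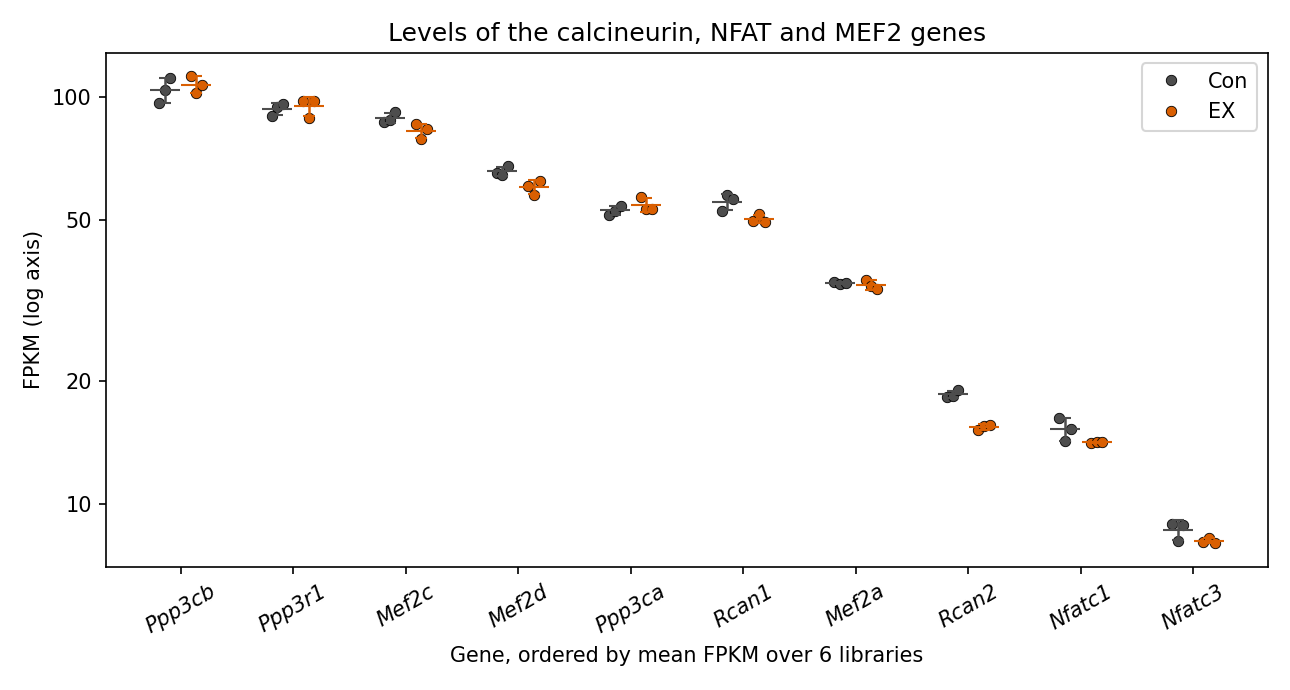
FPKM (vertical log axis) of the 10 member genes, ordered by their mean over 6 libraries, with 1 point per mouse, Con in grey and EX in orange. Horizontal marks are group means and bars are SD over n = 3 mice. The means run from 105.9 for Ppp3cb to 8.36 for Nfatc3, and the EX points of Rcan2 (15.2 to 15.6) lie below its Con points (18.3 to 19.0).

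The catalytic subunit of calcineurin comes from 3 genes, of which Ppp3ca (gene 19055) encodes the alpha and Ppp3cb (19056) the beta form. Ppp3ca was at 222.5, 225.1 and 229.5 CPM in Con replicates 1 to 3 and at 249.9, 237.8 and 234.0 CPM in EX replicates 1 to 3. Each EX value lay above each Con value. The means were 225.7 ± 3.52 and 240.6 ± 8.31 CPM, a log2 fold change of 0.09 (SE 0.04, adjusted p = 0.0986 by edgeR's quasi-likelihood test). This difference did not pass the threshold. Ppp3cb was at 281.8, 300.2 and 318.5 CPM in Con and at 333.4, 305.6 and 319.6 CPM in EX, and the groups overlapped, with a log2 fold change of 0.09 (SE 0.04, adjusted p = 0.151 by the same edgeR test). With 1 library left out, the log2 fold change of Ppp3cb lay between 0.04 and 0.13. Without Con replicate 3 it was 0.13 with an adjusted p of 0.0329 in edgeR, so that Ppp3cb was called in that fit. In 14 of 15 alternatives it was not called.

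The regulatory subunit, which binds calcium and which the catalytic subunits need for activity, is encoded in muscle by Ppp3r1 (19058). Its levels were 224.2, 233.4 and 235.7 CPM in Con and 249.6, 230.8 and 251.1 CPM in EX. EX replicate 2 lay within the Con range and the other EX libraries above it. The log2 fold change was 0.08 (SE 0.04, adjusted p = 0.196 by edgeR). Set against the summed FPKM of Ppp3ca, Ppp3cb and Ppp3cc, the FPKM of Ppp3r1 was 0.552 ± 0.00723 in Con and 0.546 ± 0.0204 in EX (exact permutation test, two-sided, p = 0.7). With 3 mice against 3, the smallest p such a test can give is 0.1.

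Among the inhibitors, Rcan2 was called and Rcan1 was not. Rcan2 (53901) encodes a calcineurin-binding protein of the same family as Rcan1 (54720), whose transcription calcineurin itself is known to raise through NFAT. Counts of Rcan2 were 772, 866 and 900 in Con and 742, 767 and 766 in EX. Scaled to CPM, they were 55.4, 55.1 and 56.4 in Con and 46.8, 48.8 and 48.6 in EX, and the highest EX value was below the lowest Con value. The mean of Rcan2 fell from 55.6 ± 0.713 CPM in Con to 48.1 ± 1.12 CPM in EX, or by 0.21 on the log2 scale (SE 0.05, adjusted p = 0.00266 by edgeR's quasi-likelihood test). As a change in level this was -13.6%, with a 95% interval from -19.4% to -7.35%. It was called under all 15 alternatives tried, with log2 fold changes from -0.30 to -0.19 and adjusted p-values from 9.0e-04 to 0.0174.

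Rcan1 was at 99.7, 108.0 and 104.4 CPM in Con and at 95.9, 101.9 and 96.6 CPM in EX. EX replicate 2 lay above Con replicate 1, so the groups overlapped. The log2 fold change was -0.09 (SE 0.04, adjusted p = 0.202 by edgeR). With limma on log2(TPM + 0.1), where the median of all genes tested was -0.09, it was -0.18 with an adjusted p of 0.0252. Rcan3 (53902), the remaining gene of the family, was at 8.61, 9.16 and 8.09 CPM in Con and at 7.32, 6.11 and 6.41 CPM in EX, with no overlap. Rcan3 fell by 0.38 on the log2 scale (SE 0.12, adjusted p = 0.0215 by edgeR), and its adjusted p was 0.110 with DESeq2, 0.0911 without Con replicate 2, 0.0973 without EX replicate 2 and 0.0837 without EX replicate 3.

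Within the RCAN family, Rcan1 made up 73.0% ± 0.764 of the summed FPKM in Con and 74.9% ± 0.525 in EX, and Rcan2 made up 24.5% ± 0.788 and 23.0% ± 0.444. Both shares separated the groups (exact permutation test, two-sided, p = 0.1, adjusted p = 0.467 over the 14 genes of 4 families). The FPKM of Rcan1 was 2.98 times that of Rcan2 in Con and 3.25 times in EX, a difference of 0.13 on the log2 scale (exact permutation test, two-sided, p = 0.1, adjusted p = 0.20 over 6 pairs). The ratio was higher in each EX library than in any Con library, and the difference did not pass the threshold, which 3 mice against 3 cannot reach.

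The windows directly upstream of the RCAN starts are shown because Rcan2 is the called member and because the 2 Rcan1 starts differ in the NFAT core motif GGAAA. The bases are from RefSeq on GRCm38.p6, 250 before each start, 5′ to 3′ on the gene's strand, with GGAAA and its reverse complement TTTCC in capitals. Rcan2 start 1 is at chr17:43801102-43801351 on the plus strand. Rcan1 start 1 is at chr16:92466170-92466419 and Rcan1 start 2 at chr16:92400079-92400328, both on the minus strand and both within introns of Rcan1 in the GENCODE M21 annotation.
Rcan2 start 1: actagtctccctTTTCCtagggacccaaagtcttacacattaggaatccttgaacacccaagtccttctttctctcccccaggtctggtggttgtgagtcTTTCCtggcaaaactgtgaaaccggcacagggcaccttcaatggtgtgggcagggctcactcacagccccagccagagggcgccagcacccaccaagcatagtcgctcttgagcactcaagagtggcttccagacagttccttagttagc
Rcan1 start 1: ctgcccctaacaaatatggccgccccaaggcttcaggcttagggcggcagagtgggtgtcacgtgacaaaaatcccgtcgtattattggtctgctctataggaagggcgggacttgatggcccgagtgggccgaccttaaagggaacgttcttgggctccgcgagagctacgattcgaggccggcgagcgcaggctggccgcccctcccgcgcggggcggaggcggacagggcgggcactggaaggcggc
Rcan1 start 2: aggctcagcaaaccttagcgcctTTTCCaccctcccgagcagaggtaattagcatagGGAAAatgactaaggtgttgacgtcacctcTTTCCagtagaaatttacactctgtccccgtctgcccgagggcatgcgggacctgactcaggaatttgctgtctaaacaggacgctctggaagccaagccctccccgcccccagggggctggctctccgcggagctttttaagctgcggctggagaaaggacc

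Rcan2 start 1 held 2 matches, Rcan1 start 1 held 0, and Rcan1 start 2, which lies 66.1 kb further downstream, held 3. Of all 32851 RefSeq windows of the same 250 bases, 55.6% held at least 1 match on either strand, 21.4% at least 2 and 6.39% at least 3. The other 2 Rcan2 starts held 0. Matches were found in 6 of the 14 windows of the 8 members that the table holds (all but Ppp3ca and Nfatc1), and a match is a run of letters, not a site at which NFAT was measured. The deposited counts and FPKM together imply a length for each gene and library, which was between 1904 and 1913 bases for Rcan1. The implied length of Rcan1 differed between groups by 0.00 on the log2 scale, and the table gives no separate value for either start. In GENCODE M21 the protein-coding transcripts beginning near start 1 are 2324 and 2319 bases long, and that near start 2 is 2190. Implied length could therefore say little about a change of start.

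The NFAT factors carry the signal to DNA, and Nfatc1 (18018) and Nfatc3 (18021) were the more abundant of the 4 calcineurin-responsive genes here. Nfatc1 was at 67.6, 59.1 and 62.4 CPM in Con and at 60.6, 61.6 and 61.2 CPM in EX, with the EX values inside the Con range and a log2 fold change of -0.04 (SE 0.05, adjusted p = 0.616 by edgeR). Its coefficient of variation was 6.84% in Con and 0.839% in EX, each over 3 mice, and a difference in spread was not tested. Nfatc3 was at 49.9, 44.7 and 48.6 CPM in Con and at 45.9, 47.9 and 46.2 CPM in EX, again inside the Con range, with a log2 fold change of -0.03 (SE 0.05, adjusted p = 0.731 by edgeR). The 95% intervals of both changes ran from -9.73% to 4.33% for Nfatc1 and from -9.31% to 5.48% for Nfatc3. Nfatc1 made up 52.2% ± 1.28 of the FPKM of Nfatc1 to Nfatc4 in Con and 52.4% ± 0.284 in EX, and Nfatc3 29.5% ± 0.912 and 29.99% ± 0.238 (exact permutation tests, two-sided, p = 0.9 and 0.5).

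The remaining NFAT genes included 1 that was called. Nfat5 (54446), which responds to osmotic stress and lacks the calcineurin-binding region of the other NFAT proteins, was at 55.2, 56.6 and 58.6 CPM in Con and at 51.2, 46.7 and 49.1 CPM in EX. The groups did not overlap, and Nfat5 fell by 0.21 on the log2 scale (SE 0.05, adjusted p = 0.00333 by edgeR), with an adjusted p of 0.0502 on log2(FPKM + 1) in limma. Nfatc2 (18019) was at 21.0 ± 1.02 CPM in Con and 19.2 ± 1.23 in EX, and Nfatc4 (73181) at 5.02 ± 1.47 and 5.01 ± 0.648. Neither passed the threshold (adjusted p = 0.247 and 0.984 by edgeR). Ppp3cc (19057), the third catalytic gene, was at 22.3 ± 2.24 and 21.4 ± 1.03 CPM and was not called either (adjusted p = 0.709 by edgeR).

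Of the MEF2 factors, which bind AT-rich sites in the promoters of contractile and metabolic genes, none was called. Mef2c (17260) was at 520.4, 520.4 and 541.0 CPM in Con and at 523.9, 492.1 and 512.5 CPM in EX, with a log2 fold change of -0.05 (SE 0.04, adjusted p = 0.370 by edgeR). EX replicate 1 lay within the Con range and the other 2 below it. Mef2d (17261) was at 333.3, 326.5 and 339.9 CPM in Con and at 315.9, 306.3 and 325.8 CPM in EX. Each EX value of Mef2d was below each Con value. The log2 fold change of Mef2d was -0.08 (SE 0.04, adjusted p = 0.157 by edgeR), and with limma on log2(TPM + 0.1), where the median of all genes tested was -0.09, it was -0.17 with an adjusted p of 0.0320.

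Mef2a (17258) was at 181.8, 178.3 and 177.9 CPM in Con and at 188.9, 185.2 and 180.8 CPM in EX. EX replicate 3 lay within the Con range and the other 2 EX libraries above it. The log2 fold change was 0.04 (SE 0.04, adjusted p = 0.465 by edgeR), and its sign turned with limma on FPKM or TPM. Mef2b (17259) lay under the filter, with no more than 0.13 CPM in any library. In Con, Mef2c made up 46.9% ± 0.411 of the summed MEF2 FPKM, Mef2d 34.7% ± 0.211 and Mef2a 18.4% ± 0.414. In EX these shares were 46.7% ± 0.437, 33.8% ± 0.686 and 19.5% ± 0.601. The share of Mef2a was higher in each EX library than in any Con library (exact permutation test, two-sided, p = 0.1, adjusted p = 0.467 over the 14 genes). The FPKM ratios of Mef2a to Mef2c and of Mef2a to Mef2d were higher in EX by 0.09 and 0.12 on the log2 scale (exact permutation test, two-sided, p = 0.1 and adjusted p = 0.20 over 6 pairs for each), and that of Mef2c to Mef2d by 0.03 (p = 0.4). The calcineurin ratio of Ppp3ca to Ppp3cb differed by -0.00 (p = 1 in the same exact permutation test) and that of Nfatc1 to Nfatc3 by -0.02 (p = 0.4).

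**Figure D3:**
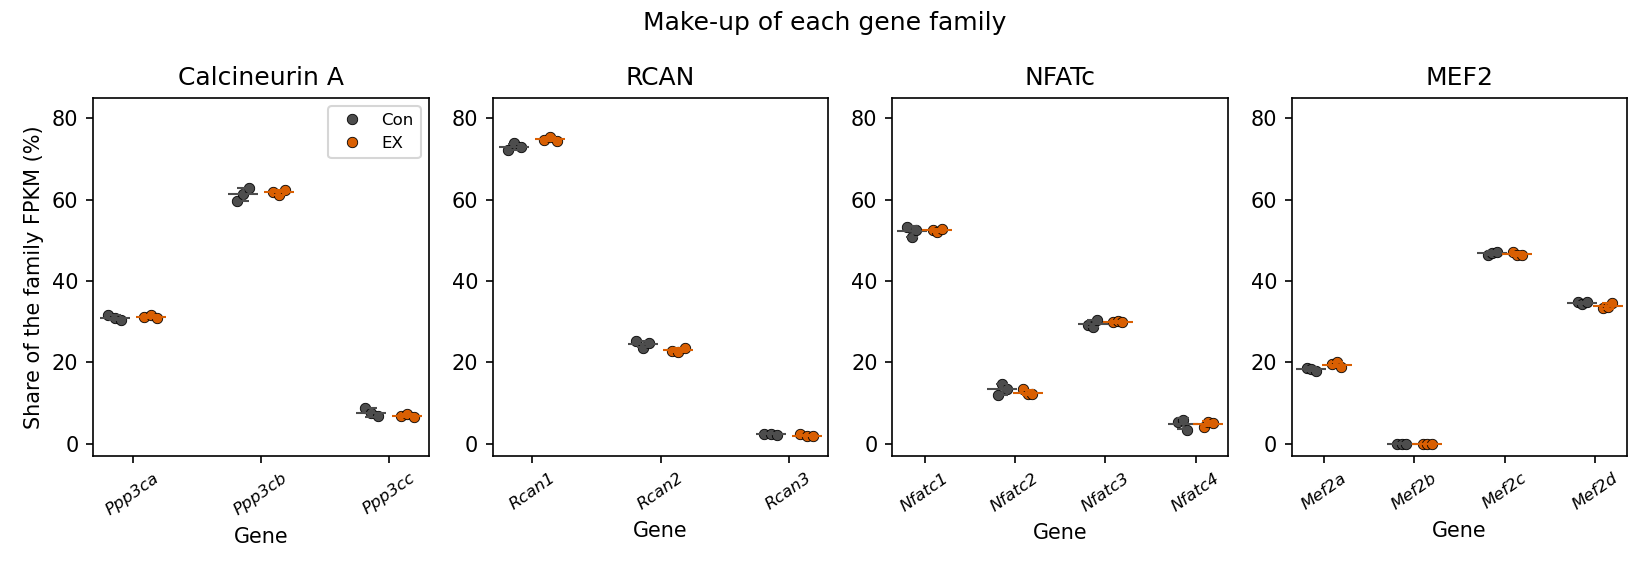
Share of each gene in the summed FPKM of its family (vertical axis, percent), with 1 point per mouse, Con in grey and EX in orange, marks for group means and bars for SD over n = 3 mice. Ppp3cb, Rcan1, Nfatc1 and Mef2c hold the largest share of their families in both groups, and the groups separate for Rcan1 (73.0% and 74.9%), Rcan2 (24.5% and 23.0%) and Mef2a (18.4% and 19.5%).

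The window upstream of the first Mef2c start is shown because it held the most NFAT core matches of the 14 member windows, with 5. Windows with at least as many made up 0.390% of all windows, and this one has a GC content of 33.6% where the median of all windows is 52.4%. It is at chr13:83503784-83504033 on the plus strand of GRCm38.p6, is taken from RefSeq, overlaps no gene in GENCODE M21, and again has GGAAA and TTTCC in capitals.
Mef2c start 1: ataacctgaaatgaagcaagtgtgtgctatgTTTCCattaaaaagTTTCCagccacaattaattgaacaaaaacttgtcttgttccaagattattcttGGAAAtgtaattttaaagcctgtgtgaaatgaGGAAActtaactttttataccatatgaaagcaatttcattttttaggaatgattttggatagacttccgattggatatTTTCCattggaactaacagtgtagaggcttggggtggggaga
The 2 other Mef2c starts held 0 matches, and the Mef2a window held 0 and the Mef2d window 1. The MEF2 consensus, searched on both strands, was in 0 of the 14 member windows and in 0.508% of all windows.

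Counted on CPM, the groups did not overlap for 3 of the 10 members, with Ppp3ca higher and Rcan2 and Mef2d lower in EX, beside 33.7% of all genes tested. On the FPKM scale, 5 members were lower in EX without overlap (Rcan1, Rcan2, Nfatc1, Mef2c and Mef2d), beside 25.8% of all genes tested. On that scale 0 members were higher without overlap, beside 9.06% of all genes tested. Nfatc1 separated on FPKM by the distance between 14.3 in Con replicate 2 and 14.2 in EX replicate 2. The implied length was tested with limma on 10806 genes, of which 0, or 0%, were called, while 595 had an unadjusted p under 0.05, and 1 or 2 genes were called under 4 alternatives. Across the 6 libraries the implied lengths of the members varied by between 0.325% of their mean (Nfatc3) and 1.48% (Ppp3cb). Ppp3ca and Ppp3cb were shorter by 0.01 each on the log2 scale in EX (adjusted p = 0.852 and 0.966 by limma).

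Lists of 87 further pathway genes had 78 above the filter, with 29 higher and 13 lower in EX. This is 53.8% called beside 17.9% of all genes tested, with a median log2 fold change of 0.04 beside -0.00. The lists were chosen with earlier results of these data known, so this excess is not an independent result. All 10 slow-fibre genes are among the called ones. With limma on log2(TPM + 0.1), 28 of the 78 were called, while 2024 of all genes tested were. The counts of each list below stand beside 9.11% higher and 8.80% lower among all genes tested. The calmodulins and calcineurin-binding proteins had 7 higher and 2 lower of 12 tested, with a median of 0.20. Calm2, 1 of 3 genes for calmodulin, rose from 182.6 ± 7.45 to 228.9 ± 7.57 CPM (log2 fold change 0.33), and Ppia, which encodes cyclophilin A, the partner of the calcineurin inhibitor cyclosporin, from 137.1 ± 3.19 to 166.1 ± 1.95 CPM (0.28). The calsarcins, which tether calcineurin to the Z-disc, moved in both directions. Myoz3 rose by 0.32, to 231.7 ± 9.98 CPM, and Myoz2, the calsarcin of slow fibres and heart, fell from 24.7 ± 2.89 to 14.04 ± 1.49 CPM (log2 fold change -0.81, adjusted p = 8.7e-08 by edgeR). On log2(TPM + 0.1) with limma 4 genes of this list were called in place of 9.

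Of 5 genes for calcium entry above the filter, 1 was called higher, with a list median of 0.11. This gene was Stim2, a calcium sensor of the endoplasmic reticulum, which rose by 0.16 (adjusted p = 0.0350 by edgeR) and passed the threshold in 5 of 15 alternatives. Without Con replicate 1, Con replicate 2, EX replicate 1 or EX replicate 2 its adjusted p was 0.168, 0.0526, 0.120 or 0.141. Of 11 NFAT kinases and Homer proteins, which return NFAT to the cytoplasm or compete for its binding, 1 was higher and 1 lower, with a median of 0.01. This is 18.2% called, a share near the 17.9% of all genes tested. Dyrk1b rose by 0.28 and Gsk3b fell by 0.18 on the log2 scale, with adjusted p-values of 1.4e-05 and 0.00590 by edgeR. That of Gsk3b was 0.0615 without EX replicate 2, and that of Dyrk1b lay between 0.0752 and 0.128 in the limma fits.

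Among 14 class II histone deacetylases and their kinases, 4 were higher and 1 lower, with a median of 0.03. Hdac9, a deacetylase that binds MEF2, fell from 11.3 ± 0.586 to 8.86 ± 0.582 CPM (log2 fold change -0.35). The higher genes were kinases that phosphorylate these deacetylases. Sik1 rose by 0.54, Sik2 by 0.27 and Camk2d by 0.16, and Camk2a, named after its value was seen, by 0.11. Camk2a was not called in 8 of 15 alternatives, with adjusted p-values up to 0.691, and without Con replicate 2, Con replicate 3, EX replicate 2 or EX replicate 3 it was at 0.124, 0.0577, 0.0621 or 0.116. Without Con replicate 2, Con replicate 3 or EX replicate 3, 3 genes of this list were called in place of 5, in the limma fits 2, and the adjusted p of Hdac9 was 0.0784 with DESeq2, and by edgeR 0.0553 without Con replicate 3 and 0.0828 without EX replicate 3. That of Sik2 lay between 0.0642 and 0.0976 in the limma fits, and that of Camk2d between 0.276 and 0.478, where its log2 fold change was 0.06 to 0.10. Camk2d was also not called with DESeq2 (adjusted p = 0.0674), nor in edgeR with Con replicate 2 left out (0.0582) or EX replicate 1 left out (0.1004). Of 9 MEF2 coactivators and activating kinases, 2 were higher and 3 lower, with a median of -0.05. Vgll2, a muscle cofactor of TEAD and MEF2 factors, fell from 39.1 ± 3.69 to 24.1 ± 1.15 CPM (log2 fold change -0.69), Ep300 and Ncoa2 fell by 0.19 each, Map2k6, which activates p38, rose by 0.29, and Vgll4, named after its value was seen, by 0.17. Vgll4 (adjusted p = 0.0351 by edgeR) was not called in 12 of 15 alternatives, with adjusted p-values up to 0.606, and without Con replicate 1, Con replicate 3, EX replicate 1, EX replicate 2 or EX replicate 3 it was at 0.104, 0.0977, 0.0705, 0.115 or 0.0704. Without EX replicate 3 the number called was 2, with an adjusted p of 0.0828 for Ep300 and 0.0532 for Ncoa2 by edgeR. Without Con replicate 1 or EX replicate 2 the number was 3, with an adjusted p for Ncoa2 of 0.0507 or 0.0701 by edgeR, and with DESeq2 it was 0.101 for Ncoa2. The adjusted p of Map2k6 was at least 0.190 in the limma fits.

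Downstream, 12 muscle genes known as MEF2 targets had 5 higher and 2 lower, with a median of 0.07. Myog, a myogenic factor, rose from 4.31 ± 0.350 to 8.56 ± 0.889 CPM (log2 fold change 0.99), Pgam2 of glycolysis by 0.23 and Smyd1 of sarcomere assembly by 0.19. Xirp1, an actin-binding protein of muscle, fell from 155.6 ± 10.6 to 126.2 ± 5.06 CPM (log2 fold change -0.30). On log2(TPM + 0.1) with limma, 4 of these 12 genes were called in place of 7. Smyd1 was among those lost, with a log2 fold change of 0.10 and an adjusted p of 0.0626 in that limma fit. All 10 slow-fibre genes were called, with 9 higher, 1 lower and a median of 2.31. Myh7 rose by 6.65, Tnni1 and Tnnc1 by 4.84 each and Tnnt1 by 4.26 on the log2 scale, and the lower gene, myoglobin (Mb), named after its value was seen, fell by 0.14. The deposited counts of Myh7 in EX were not whole numbers, whereas those of all 10 members were.

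**Figure D4:**
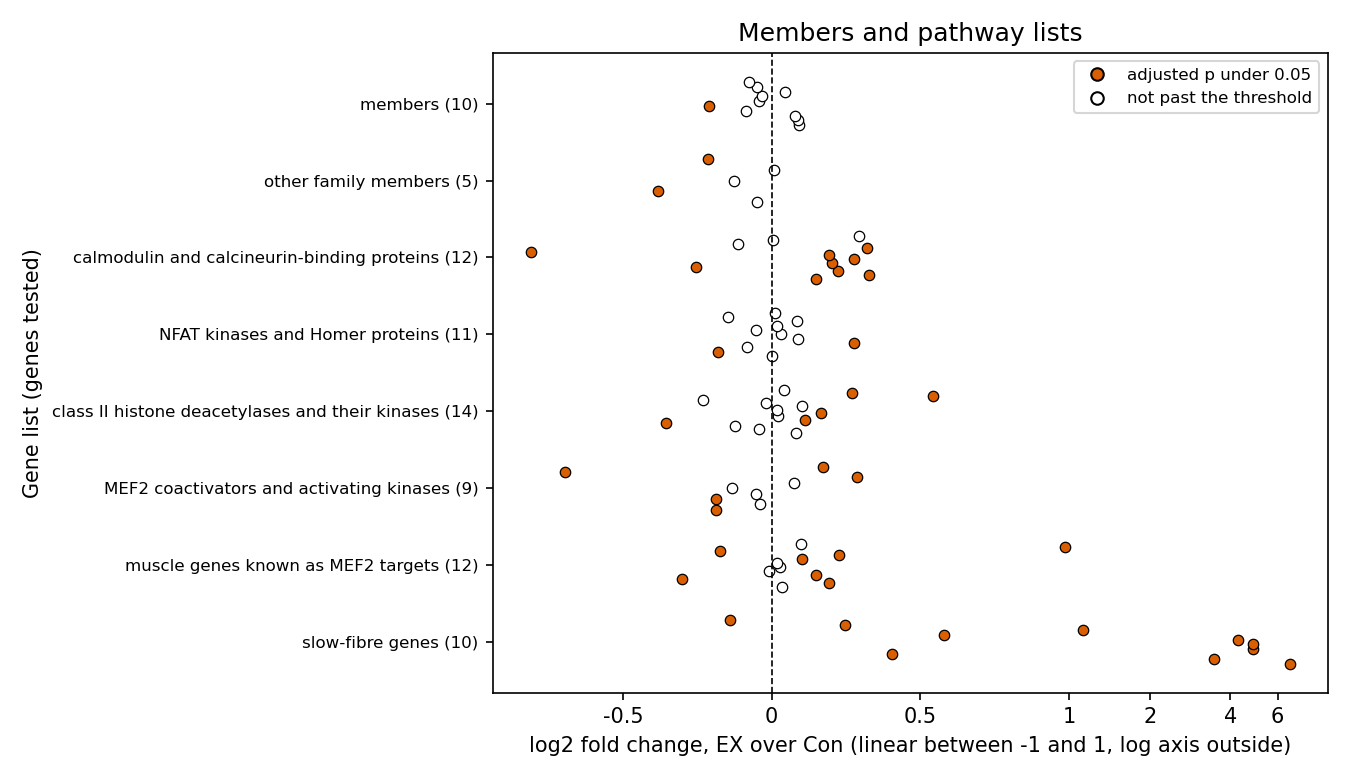
Log2 fold changes between EX and Con (horizontal axis, linear between -1 and 1 and logarithmic outside) of the members and of the pathway lists other than calcium entry, with 1 point per gene above the filter and called genes in orange. The members lie between -0.21 and 0.09, and the slow-fibre genes between -0.14 and 6.65.

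Markers of other cell types were also counted, beside 9.11% higher and 8.80% lower among all genes tested. Summed CPM of 10 endothelial markers was 987.6 to 1023 in Con and 868.5 to 888.5 in EX, with 6 lower and 0 higher, and that of Schwann cell markers 109.4 to 120.9 and 83.7 to 88.3, with 4 lower. Macrophage markers were at 44.2 to 49.0 and 79.2 to 86.5 CPM with 6 of 7 higher, adipocyte markers at 14.1 to 15.3 and 34.8 to 39.3 with 4 of 4 higher, and tendon markers at 169.5 to 186.3 and 244.7 to 261.4 with 3 of 5 higher. Fast-fibre markers, at 197723 to 204739 CPM in Con and 215328 to 225183 in EX, had 6 higher and 1 lower of 10. Smooth muscle had 1 higher and 1 lower of 5, satellite cells 1 higher of 5, and T cell markers, at no more than 0.430 CPM summed, were all under the filter. No marker was at 0 in all 6 libraries. Their part in the fall of Rcan2, Rcan3 and Nfat5 was not tested.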

How the data were processed

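Hind leg muscle RNA of 6 mice was measured by RNA-seq, with 1 library for each. Sequencing by the authors was paired-end on DNBseq, after which low-quality reads were removed. The paper's methods name HISAT and GRCm39, whereas the submitters' processing notes list GRCm38.p6, cutadapt, featureCounts and MultiQC. The strand setting is not given in the sources used here, so reads of a gene and of an antisense gene cannot be told apart. The deposited table gives, per gene and library, an estimated count that is not normalized, and FPKM and TPM values that the authors normalized by length and depth. The 6 columns of group means were not used. All member counts were whole numbers.

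Estimated counts were rounded and tested with edgeR 4.0.16 (TMM, glmQLFit, glmQLFTest) in R 4.3.3 on genes whose mean FPKM was 1 or more. limma 3.58.1 and DESeq2 1.42.0 served as alternatives, together with other filters, scalings, a replicate block and each library left out. Single values were compared by exact permutation tests. Implied length is the count divided by FPKM and by the library total, on genes with at least 10 counts in each library. limma fold changes are on the log2(value + pseudocount) scale, which understates low genes. The steps were checked on simulated counts.

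The members and lists were chosen with earlier results of these data known. Named were the members, the other genes of their families, and up to 4 called genes with the largest change in each other list. Camk2a, Vgll4 and Mb were named beyond this rule, after their values were seen. Libraries of 1 group differed by more than sampling noise (chi-square per degree of freedom from 1.79 to 4.19). Ppp3r2 was not analysed here, and 1 item withheld for evaluation is not reported. Sequences are from RefSeq on GRCm38.p6.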

Additional observations from a re-analysis of the deposited data

How the results depend on the processing

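DESeq2 called 1228 genes in place of 1949. The number of called members was 1 in all alternatives except limma on log2(TPM + 0.1), with 3, and leaving out 1 library, with 1 to 2 (2 without Con replicate 3). In the alternatives with limma, Mef2a turned to -0.013 on log2(FPKM + 0.1), -0.013 on log2(FPKM + 1) and -0.049 on log2(TPM + 0.1), and Ppp3r1 to -0.016 on TPM. Nfatc4 turned to -0.017 without the 20 most abundant genes, -0.061 and -0.045 on log2(FPKM + 0.1) and log2(FPKM + 1), and -0.095 on TPM. With 1 library left out, the log2 fold change lay between -0.091 and 0.0040 for Nfatc1, between -0.11 and 0.023 for Ppp3cc and between -0.23 and 0.14 for Nfatc4. Its range was -0.081 to -0.0045 for Nfatc3 and -0.070 to -0.025 for Mef2c, with no turn of sign. The cause was not tested. For implied length, 0 genes were called, 1 with TPM in place of FPKM and 0 to 2 with 1 library left out (2 without EX replicate 3, and 1 without Con replicate 1 or EX replicate 2). With TPM the log2 change in implied length was -0.00020 for Rcan1, -6.7e-05 for Rcan2 and -0.00055 for Nfatc3. With 1 library left out it lay between -0.00078 and 0.0024 for Ppp3r1, -0.00094 and 0.0021 for Rcan1, -0.0014 and 0.0027 for Rcan2, -0.00078 and 0.0012 for Nfatc3, and -0.0022 and 0.00097 for Mef2d. Deviations from the group means correlated at r from -0.079 to -0.012 across genes for libraries with the same replicate number. For the other pairs of a Con and an EX library, r ran from -0.051 to 0.093. With 3 libraries per group, these values cannot decide whether the numbers pair the mice. With the replicate block, 1782 genes and 1 member were called. Of the other family genes, 0 were called at a mean of 5 FPKM, a filter that removes Rcan3 and Nfat5. With 3 mice per group, the intervals given for the members set the limit on the changes that could be seen.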
